A study of Phaseolus vulgaris with 36 samples.

Results

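Pods of ICA Bunsi, a domesticated accession of common bean (Phaseolus vulgaris), were compared at maturity (R9) with pods at filling (R8). The comparison used 6 of the 36 samples, the 3 R9 and the 3 R8 libraries whose labels name this accession. The other samples were ICA Bunsi at the first-pod stage (R7) and 3 further accessions at R7, R8 and R9, again with 3 libraries per stage. All plants were untreated. The labels place ICA Bunsi between the dehiscent and indehiscent types, in the same class as SXB405, which is also domesticated. They describe MIDAS as domesticated and indehiscent and G12873 as wild and fully dehiscent. Each accession is a single line, and MIDAS and G12873 are each the only accession of their kind, so accession, domestication and dehiscence cannot be told apart for them. Nothing in the labels says that the 3 libraries of a stage came from separate plants. The spread behind each p-value was estimated from all 36 samples in 12 groups, as variation among libraries of the same group. That variation may be technical.

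A bean pod holds the seeds between a pair of valves that grow first, stay green while the seeds fill with storage protein and starch, and dry out at maturity. During filling, seed RNA is commonly dominated by transcripts of a few storage proteins, and drying seeds accumulate transcripts for protection against water loss. In dehiscent types, lignified fibres in the valves and a separation layer along the suture let the dry pod split and twist open. The labels name the tissue as pod and do not say whether seeds were left in. No gene names come with the identifiers in the files. A RefSeq table of 34165 genes (assembly P. vulgaris v2.0) matched 0 of the 27433 identifiers. Genes are therefore given by identifier, without names or roles, and the tissue could not be checked against marker genes.

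The libraries differed in how much of the sequencing fell on a few genes. Estimated counts, the number of reads that the quantification assigned to a gene, summed to 4859119, 9631541 and 3219403 in R9 replicates 1, 2 and 3, against 12131784, 9498756 and 8222726 in the R8 replicates. A set of 10 abundant genes that varied together over the 36 samples took 64.1%, 12.2% and 71.8% of these counts at R9 and 44.1%, 17.9% and 13.5% at R8. R9 replicate 2 thus lay below all 3 R8 libraries in this share, and R9 replicates 1 and 3 lay above them. The first gene of the set, Phvul.L001990, alone took 28.0%, 5.43% and 32.3% of the counts at R9, against 18.9%, 7.27% and 5.82% at R8. The second, Phvul.003G000408, took 19.8%, 4.52% and 22.7% at R9 and 17.6%, 7.10% and 5.01% at R8. None of the 10 genes was called between the stages in edgeR's quasi-likelihood test. Their log2 fold changes lay between 2.01 and 3.13, and the smallest adjusted p was 0.203.

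**Figure D1:**
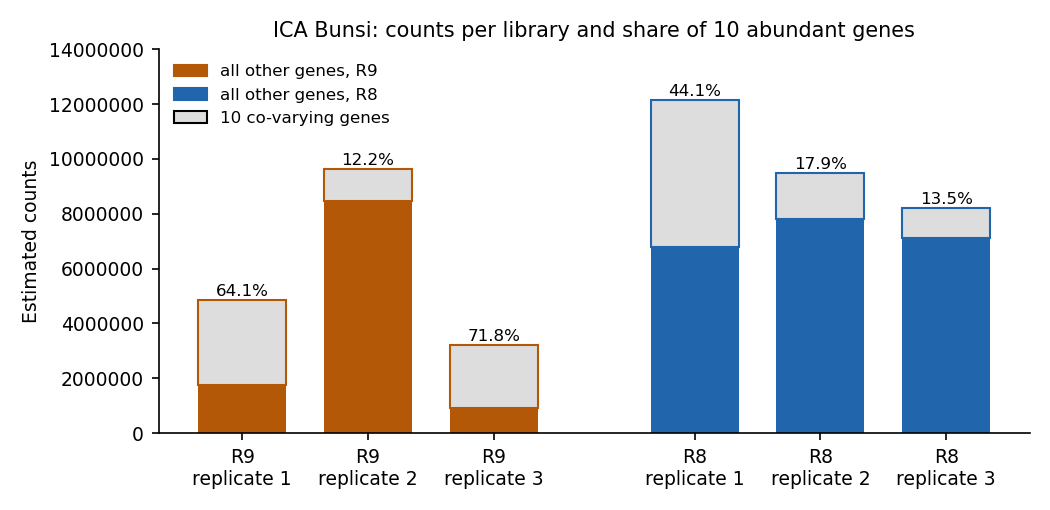
Estimated counts for each ICA Bunsi library at R9 (left) and R8 (right), split into the 10 co-varying abundant genes (grey) and all other genes (coloured), with the share of the 10 genes printed above each bar. R9 replicates 1 and 3, with 64.1% and 71.8% in the 10 genes, had the fewest counts left for other genes.

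The counts left outside the set were 1742591, 8454619 and 908225 at R9, against 6779815, 7803094 and 7113649 at R8. R9 replicate 3 therefore measured the other genes at the lowest depth, and genes with a count numbered 19032, 21945 and 17516 at R9 and 22092, 22177 and 22546 at R8. Across genes, log2 CPM (CPM are counts scaled by the library size after TMM correction) correlated between replicates with Pearson's r of 0.894 to 0.923 at R9 and 0.935 to 0.972 at R8. No pair of libraries agreed within sampling noise.

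A large part of the transcriptome differed between mature and filling pods of ICA Bunsi. In edgeR's quasi-likelihood test, 1534 genes rose and 1698 fell at R9 relative to R8. A call required a change of 2-fold or more and an adjusted p under 0.05. These are 7.32% and 8.1% of the 20966 genes tested, 15.4% in all. The median size of the log2 fold change was 1.54 among the genes that rose and 1.68 among those that fell, and over all genes tested the median was -0.08. In the bulk RNA used here, fewer cells of a type and less RNA per cell cannot be told apart. Leaving out R8 replicate 2 lowered the number of called genes to 1916, and leaving out R9 replicate 3 lowered it to 2125. With R9 replicates 1 and 3 both left out, replicate 2 stood alone for R9 and was assumed to vary like the other groups. The median log2 fold change was then 1.08 over the 1534 rising genes and -1.56 over the 1698 falling genes. R9 replicate 2 had also entered the choice of these genes.

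**Figure D2:**
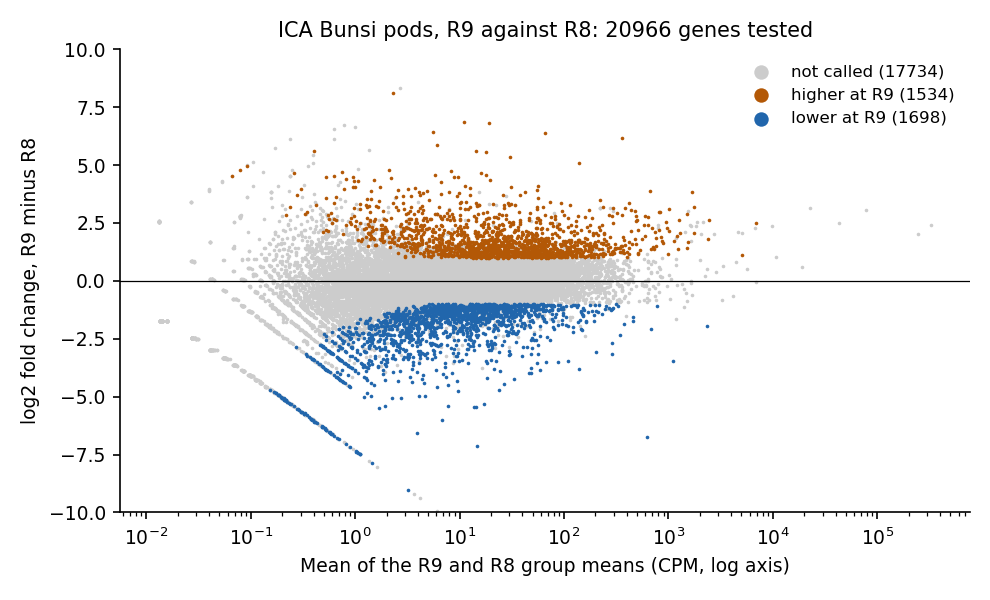
Log2 fold change of R9 over R8 in ICA Bunsi against the mean of the R9 and R8 group means in CPM (log axis), 1 point per gene, with the 1534 genes called higher at R9 in orange and the 1698 called lower in blue. The 159 tested genes with no count in the 6 libraries are not drawn, and the slanted lines of points at the lower left are genes with 0 or few counts at R9.

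Most called genes separated the libraries completely. The calls were made from these same libraries, so the separation is not separate evidence for them. The 3 R9 libraries lay above the 3 R8 libraries in CPM for 1435 of the 1534 genes that rose (93.5%), and below them for 1563 of the 1698 that fell (92.0%). Over all genes tested, the R9 libraries were all above the R8 libraries for 18.6% and all below for 23.0%. By library, the median log2 CPM of the genes that rose was 5.19, 4.63 and 5.37 at R9 and 3.52, 3.21 and 3.70 at R8. For the genes that fell it was 1.60, 2.14 and 1.59 at R9, against 3.41, 3.80 and 3.25 at R8. R9 replicate 2 stood nearest to R8 among the R9 libraries in both lists, and R8 replicate 2 stood farthest from R9 among the R8 libraries in both.

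The fold changes of falling genes reached further than those of rising genes in the fit, and at the far end this came from genes at 0. At least an 8-fold change was fitted for 132 genes that rose and 297 that fell, and at least a 32-fold change for 12 and 80. All 3 R9 libraries were at 0 for 75 of the falling genes, and all 3 R8 libraries for 6 of the rising genes, and a fitted fold change has no measured size there. With such genes set to the floor of 3 counts over the group, which is 0.190 CPM at R9 and 0.0862 CPM at R8, the genes of at least 8-fold numbered 128 among those that rose and 233 among those that fell. At 32-fold they numbered 11 and 14, and the median sizes were 1.53 and 1.65. Floors cover counting error only.

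The levels at R7, which entered neither side of the comparison, place the R9 change in the course of pod growth. The median over the 1534 rising genes of the mean log2 CPM was 3.35 at R7, 3.45 at R8 and 5.04 at R9. For the 1698 falling genes it was 3.60 at R7, 3.50 at R8 and 1.65 at R9. As groups, both lists had about the same median level at R7 and R8 and a different one at R9. Single genes moved both ways before that. Among rising genes, 24.7% were at least 2-fold higher at R8 than at R7 and 13.4% at least 2-fold lower. Among falling genes these shares were 18.9% and 20.8%, and among all genes tested 15.1% and 14.5%. The R8 libraries also entered the choice of both lists. When genes were grouped by their mean CPM at R7, the share called higher was 7.25% of the 2923 genes under 1 CPM, 7.24% from 1 to 10 CPM, 6.97% from 10 to 100 CPM and 12.1% of the 862 genes from 100 to 1000 CPM. The share called lower in those classes was 3.80%, 8.40%, 9.09% and 8.93%. In R7 replicate 3 the 10 co-varying genes took 72.9% of the counts, against 6.4% and 7.0% in R7 replicates 1 and 2. Of the 49 genes at 1000 CPM or more at R7, 4 were called higher and 5 lower. Their median log2 fold change was 1.04 with all libraries and -1.38 with R9 replicate 2 alone, so its sign depended on R9 replicates 1 and 3.

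Transcript abundance outside the 10 co-varying genes was also more concentrated in R9 replicates 1 and 3. On the deposited TPM scale, which corrects for transcript length, the 10 most abundant genes outside the set made up 35.8%, 18.4% and 34.0% of the remaining TPM at R9, and 30.8%, 21.7% and 16.9% at R8. The 100 most abundant made up 60.5%, 35.9% and 60.7% at R9, against 48.5%, 38.6% and 32.4% at R8. R9 replicate 2 lay within the R8 range in both. Genes at 1 TPM or more numbered 16366, 18060 and 15548 at R9 and 18151, 18509 and 19056 at R8.

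A core of 653 rising genes (3.11% of those tested) and 606 falling genes (2.89%) was called with all libraries and again in each of the 6 fits that left out 1 library. Among those with a mean of at least 1 CPM at both stages and no overlap of the libraries, Phvul.010G135151 had the largest rise. It measured 194, 352 and 262 CPM in the R9 libraries and 2.92, 1.39 and 19.5 CPM in the R8 libraries. Every R9 library exceeded every R8 library, and R8 replicate 3 was the highest of its stage. Its log2 fold change was 5.08 ± 1.17 (SE, edgeR adjusted p = 0.00351), and it stayed called with R9 replicate 2 alone at 5.45 (adjusted p = 0.0378). Its level at R7 was 1.91 to 7.51 CPM, so the high level was seen at R9 alone among the ICA Bunsi stages.

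Phvul.002G270700 followed, with 19.8, 14.1 and 30.9 CPM at R9 and 0.848, 0.0816 and 2.60 CPM at R8. The stages did not overlap, and the highest level at R7 was 0.226 CPM. The rise was 4.10 ± 0.96 as a log2 fold change (SE, edgeR adjusted p = 0.00368). With R9 replicate 2 alone it was 3.55 and no longer called (adjusted p = 0.0955).

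Under the same limits on level and overlap, Phvul.011G209600 fell furthest. It measured 17.0, 6.05 and 13.1 CPM at R9, against 805, 2578 and 329 CPM at R8. Every R9 library was more than 10-fold below every R8 library, and R8 replicate 2 was the highest. The log2 fold change was -6.76 ± 1.09 (SE, edgeR adjusted p = 0.000161), and between -7.25 and -5.65 when single libraries were left out. At R7 the gene measured 47.2 to 136 CPM, between the levels of the 2 later stages. Phvul.006G151300 was next, at 3.78, 1.11 and 1.87 CPM at R9 and 15.4, 75.5 and 11.6 CPM at R8. Its log2 fold change of -4.21 ± 0.73 (SE, edgeR adjusted p = 0.000241) rested partly on R8 replicate 2, without which it was -2.85 and still called.

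The most abundant genes of the core changed by smaller factors than the genes above, which were picked for the size of their change. They too were picked to have no overlap of the R9 and R8 libraries. Phvul.008G101800 measured 13696, 7538 and 13980 CPM at R9 and 2061, 1161 and 3002 CPM at R8. All R9 libraries were above all R8 libraries, with replicate 2 the lowest in both stages. The rise of Phvul.008G101800 was 2.50 ± 0.39 on the log2 scale (SE, edgeR adjusted p = 7.31e-05). Phvul.009G248700 measured 4560 (replicate 1), 2032 and 5934 CPM at R9, against 649, 694 and 668 CPM at R8. The R8 libraries lay close together, and the R9 spread was wide, with a standard deviation of 1979 CPM against 22.7 CPM at R8 (n = 3 each). Its log2 fold change was 2.64 ± 0.34 (SE, edgeR adjusted p = 9.05e-06) and 1.58 with R9 replicate 2 alone (adjusted p = 0.0284).

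Among abundant falling genes, Phvul.007G002400 measured 279, 97.1 and 170.3 CPM at R9 and 1486, 3772 and 789.4 CPM at R8. The stages were apart in every library, and R8 replicate 2 was again the highest. This fall was a log2 fold change of -3.47 ± 0.66 (SE, edgeR adjusted p = 0.000563). Phvul.002G154500 measured 381, 266 and 139 CPM at R9, against 1096, 1171 and 1039.8 CPM at R8. The R8 values lay close together and near the 1099 to 1479 CPM seen at R7. The fall was a log2 fold change of -2.07 ± 0.50 (SE, edgeR adjusted p = 0.00373), and the same size with R9 replicate 2 alone was not called (adjusted p = 0.152).

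**Figure D3:**
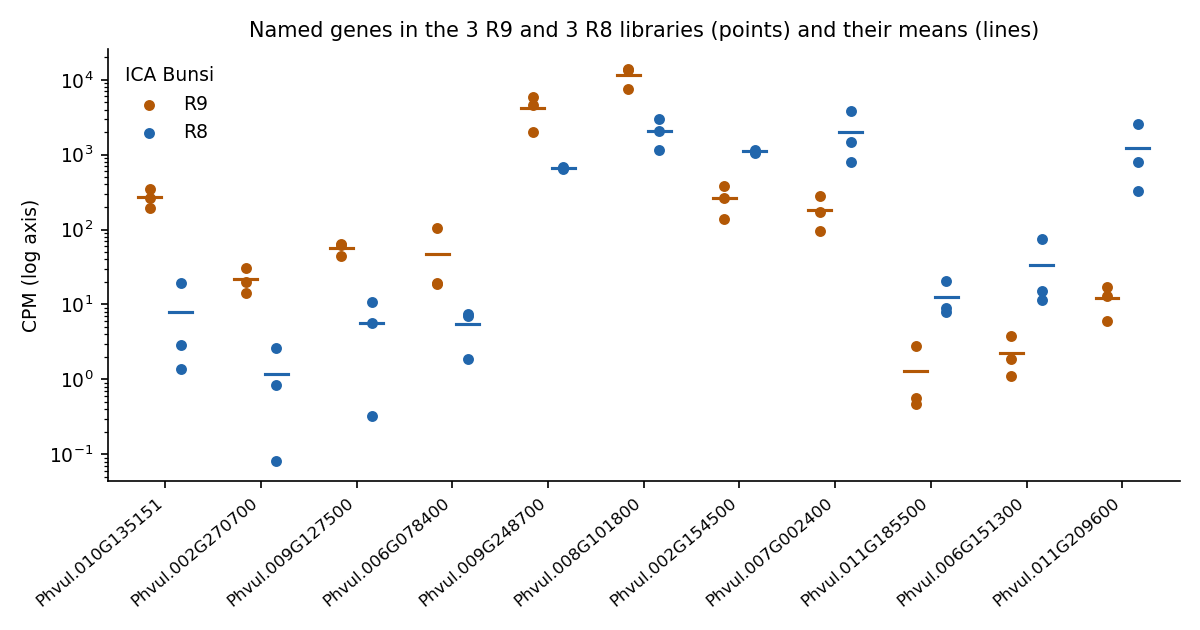
CPM (log axis) of 11 called genes in the ICA Bunsi R9 libraries (orange, left of each pair) and R8 libraries (blue), with 1 point per library and a line at each group mean. The 3 R9 points lie wholly above or wholly below the 3 R8 points for each gene shown, as the choice of these genes required.

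Genes that went to 0 were far more frequent at R9 than genes that appeared there. After rounding, 345 genes had no count in any R9 library and a count in each R8 library, against 7 genes with no count in any R8 library and a count in each R9 library. The lower counts of R9 replicates 1 and 3 move with this difference, and their part in it was not tested. The most abundant of the genes at 0 at R8 was Phvul.007G060000, with 7, 7 and 13 counts in the R9 libraries. It measured 3.31, 0.557 and 12.2 CPM there, highest in R9 replicate 3, where depth was lowest. Its R9 mean was 62.0-fold the R8 floor, but R9 replicate 3 carried most of that mean, and R9 replicate 2 lay far below it. The gene was not called by edgeR (adjusted p = 0.370), while DESeq2 (adjusted p = 0.0105) and limma-voom (adjusted p = 0.0441) called it. Phvul.007G230600 had 5, 3 and 12 counts at R9, or 2.36, 0.239 and 11.2 CPM. It was called (edgeR adjusted p = 0.0258) and lost the call when any of 5 of the 6 libraries was left out. In the other direction, Phvul.006G028601 had 0 counts at R9 and 25.0, 10.5 and 1.17 CPM at R8. Its R8 mean was 64.1-fold the R9 floor, with R8 replicate 3 far below that mean. Phvul.003G187033 had 0 counts at R9, against 3.11, 20.9 and 1.09 CPM at R8. These values spread over more than 10-fold within R8, and neither gene was called by edgeR (adjusted p = 0.186 and 0.0528), while DESeq2 called both (adjusted p = 1.19e-14 and 0.0225). Neither had a count at R7, so both were seen in ICA Bunsi at R8 only.

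Values were also taken for 3 identifiers that were named whatever their values. Phvul.002G271000 was low throughout, with 4.72, 0.478 and 2.81 CPM at R9 and 0.283, 0.163 and 0.587 CPM at R8. R9 replicate 2 lay within the R8 range, so the stages overlapped. The gene rose with a log2 fold change of 2.57 ± 0.71 (SE, edgeR adjusted p = 0.0107), and without R9 replicate 1 the value was 1.29 (adjusted p = 0.370). Phvul.005G157600 measured 0.945, 0.239 and 0 CPM at R9 and 0.565, 3.02 and 0.419 CPM at R8, with a log2 fold change of -1.97 ± 0.76 (SE, edgeR adjusted p = 0.0598). It missed the threshold with all libraries and passed it without R8 replicate 1, R8 replicate 3 or R9 replicate 1, and R8 replicate 2 carried most of its counts. Phvul.003G252100 measured 19.4, 14.96 and 14.03 CPM at R9, against 13.8, 9.54 and 15.5 CPM at R8. The stages overlapped, and the log2 fold change of 0.32 ± 0.36 (SE, edgeR adjusted p = 0.565) was within its error.

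Called genes were spread over all 11 chromosomes. By the chromosome number written in the identifier, the share of tested genes called higher ran from 5.75% on chromosome 11 to 8.46% on chromosome 6, and the share called lower from 7.11% on chromosome 2 to 9.61% on chromosome 6. Adjacent identifiers called in the same direction formed 13 runs of 3 or more genes that rose and 15 that fell, and no run held 5. The 2 longest rising runs had 4 genes each. Phvul.003G104500 to Phvul.003G104800 summed to 133 CPM at R9 and 55.2 CPM at R8, and Phvul.011G183700 to Phvul.011G183900 summed to 139 CPM at R9 and 23.9 CPM at R8. The longest falling run, Phvul.002G073000 to Phvul.002G073300, summed to 8.72 CPM at R9, against 38.6 CPM at R8. Neighbouring genes can be copies that share reads, so members of a run are uncertain one by one.

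Transcripts gave no gene with calls in both directions. Of 27561 transcripts tested in place of genes, 1024 were called higher and 1113 lower, and 0 genes held transcripts called in opposite directions. A transcript called in the gene's own direction was found for 1885 of the 3232 called genes, and 240 genes had a called transcript without a call of the gene. Of the called genes, 648 had 2 or more transcripts in the files and 2584 had 1.

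The position of each library along the R8 to R9 course was read from genes defined without ICA Bunsi. In both SXB405 and MIDAS, 251 genes were called higher and 348 lower at R9 than at R8. The mean log2 CPM of the rising genes minus that of the falling genes was -2.73, -2.77 and -2.82 in the ICA Bunsi R7 libraries. It was -1.69, -2.80 and -1.14 in the R8 libraries and 1.20, 1.37 and 1.36 in the R9 libraries. The R9 libraries had 12.2% to 71.8% of their counts in the 10 co-varying genes. They lay close together on this scale, from 1.20 to 1.37, and R8 replicate 2 lay among the R7 libraries. In G12873 the values were -2.69, -2.90 and -2.27 at R7. They reached 0.56, 0.92 and 0.19 at R8, and 1.57, 1.09 and 0.67 at R9. G12873 lay above 0 at R8, where every ICA Bunsi library was below 0. On this scale 0 marks no stage. Whether the G12873 values reflect stage or levels of these genes particular to that accession was not tested. These are descriptions of single libraries and were given no test.

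**Figure D4:**
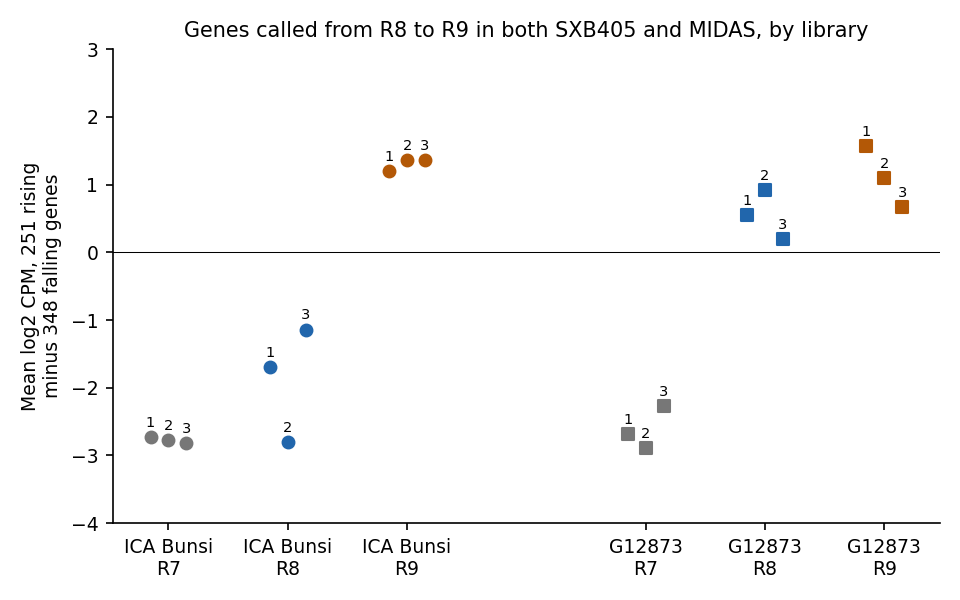
Mean log2 CPM of 251 genes that rose minus that of 348 genes that fell from R8 to R9 in both SXB405 and MIDAS, for each library of ICA Bunsi (circles) and G12873 (squares) at R7, R8 and R9, with replicate numbers beside the points. ICA Bunsi R8 replicate 2, at -2.80, lies with the R7 libraries, and the 3 R9 libraries lie between 1.20 and 1.37.

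The number of genes called for the same step differed widely between the accessions. Such counts do not measure the size of the step, and the difference of the steps was tested separately. From R8 to R9, 2973 genes (14.2%) were called higher and 3388 (16.2%) lower in MIDAS, 30.3% in all, and 598 (2.85%) and 442 (2.11%) in SXB405, 4.96% in all. In G12873, edgeR called 0 genes, with 1209 genes at an unadjusted p under 0.05, while DESeq2 called 7 and limma-voom 0. These comparisons share no library with that of ICA Bunsi. Of the 1534 genes that rose in ICA Bunsi, 913 also rose in MIDAS, which is 59.5% of the ICA Bunsi list and 30.7% of the MIDAS list, and 16 fell there. In SXB405, 155 of them rose, 10.1% of the ICA Bunsi list and 25.9% of the SXB405 list, and 0 fell. Of the 1698 genes that fell in ICA Bunsi, 1035 also fell in MIDAS (61.0% and 30.5% of the lists) and 282 in SXB405 (16.6% and 63.8%), while 13 rose in MIDAS and 2 in SXB405. The median log2 fold change of the rising genes was 1.39 in MIDAS, 0.40 in SXB405 and 0.10 in G12873, and that of the falling genes was -1.62, -0.71 and -0.14. The medians over all genes tested were -0.04, -0.02 and -0.01.

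Whether the step itself differed was tested as the ICA Bunsi step minus that of the other accession. Against G12873, the difference was called above 0 for 528 genes (2.52%) and below 0 for 364 (1.74%), 4.25% in all. Against MIDAS it was called above 0 for 841 genes (4.01%) and below 0 for 930 (4.44%), 8.45% in all. Against SXB405, 108 genes (0.515%) were called above 0 and 28 (0.134%) below 0, 0.649% in all. All 3 counts depended on single ICA Bunsi libraries. For SXB405, 0 genes were called without ICA Bunsi R9 replicate 1 (2673 at an unadjusted p under 0.05), 6 without R9 replicate 3, 6 without R8 replicate 1 and 4 without R8 replicate 2, against 138 without R8 replicate 3 and 1275 without R9 replicate 2. The difference from G12873 moved as well, to 178 genes with R8 replicate 2 left out, 437 with R8 replicate 1, 223 with either R9 replicate 1 or 3, and 2136 with R9 replicate 2. That from MIDAS moved to 969 with R8 replicate 3 left out, 1162 with R8 replicate 1 and 1016 with R9 replicate 1. With R9 replicate 2 alone, edgeR called 0 genes against SXB405 (1345 at an unadjusted p under 0.05), 1 against G12873 and 351 against MIDAS.

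Among the 1534 genes that rose in ICA Bunsi, the rise was called larger than the change in G12873 for 464 genes, than in MIDAS for 124 and than in SXB405 for 93, and smaller than in MIDAS for 143. Among the 1698 that fell, the fall was called larger than the change in G12873 for 314 genes, in MIDAS for 73 and in SXB405 for 19, and smaller than in MIDAS for 62. Both lists and these differences use the same ICA Bunsi libraries, so a direction shared between them is not separate evidence.

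**Figure D5:**
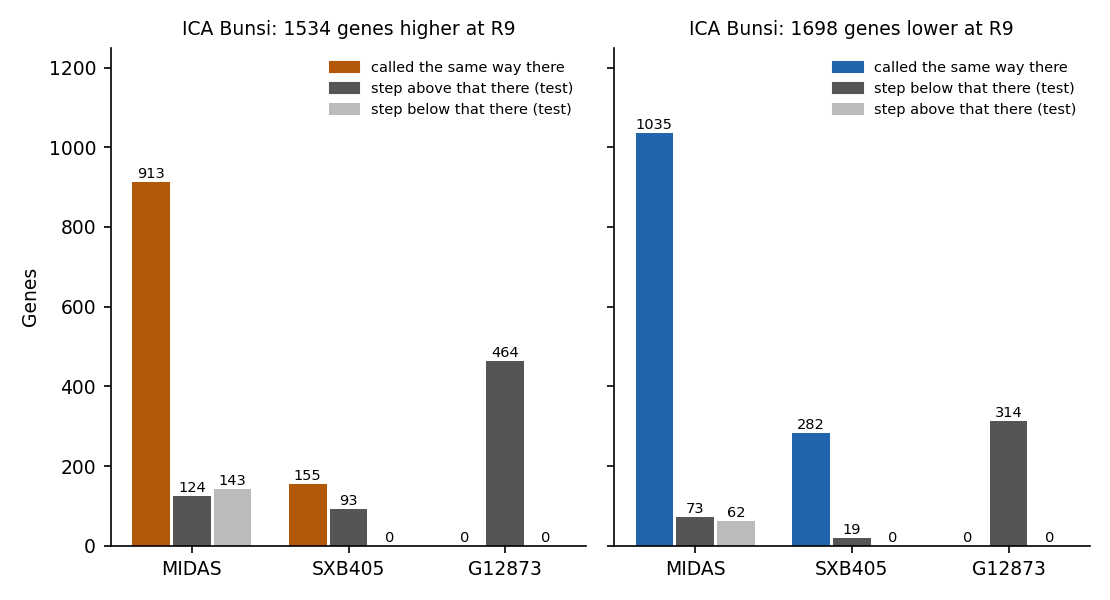
Numbers of the 1534 genes higher (left) and 1698 genes lower (right) at R9 in ICA Bunsi that were called in the same direction in each other accession (coloured), and whose step in ICA Bunsi was called further from that accession's in the same direction (dark grey) or short of it (light grey). MIDAS shares the most called genes, with 913 and 1035, and G12873, with 0 genes called by edgeR for its own step, has the most called differences within these lists, with 464 and 314.

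In all 3 domesticated accessions, 126 genes (0.601%) rose and 238 (1.14%) fell from R8 to R9. Phvul.009G127500 was among those that rose furthest. Like the called genes named after it, it was picked to have no overlap of the R9 and R8 libraries in ICA Bunsi. It measured 61.4, 44.9 and 63.6 CPM at R9 in ICA Bunsi, against 5.65, 0.326 and 10.9 CPM at R8. The R9 libraries were close together and every R8 library was lower, R8 replicate 2 by most. Its log2 fold change was 3.31 ± 0.70 (SE, edgeR adjusted p = 0.00162), beside 7.23 in MIDAS and 2.33 in SXB405. The ICA Bunsi rise was smaller than that in MIDAS by 3.92 on the log2 scale (a difference of -3.92 ± 1.07, SE, edgeR adjusted p = 0.0216).

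Phvul.006G078400 measured 104, 19.5 and 18.7 CPM at R9 and 7.44, 1.88 and 6.96 CPM at R8. R9 replicate 1 stood well above the other R9 libraries, though the stages did not overlap. The log2 fold change was 3.13 ± 0.84 (SE, edgeR adjusted p = 0.00992), and the call was lost without R9 replicate 1, at 1.77 (adjusted p = 0.162), and without R8 replicate 2, at 2.71 (adjusted p = 0.0633). The rise was 4.29 in SXB405 and 4.95 in MIDAS.

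Phvul.011G209600, described above, fell in all 3 as well, by a log2 fold change of -4.81 in SXB405 and -4.24 in MIDAS. In G12873 it measured 2.43 ± 0.475 CPM at R9 and 4.85 ± 2.21 CPM at R8 (SD, n = 3 each), already low at R8. The other gene named by the same rule, Phvul.011G185500, measured 0.472, 0.557 and 2.81 CPM at R9 in ICA Bunsi, against 7.82, 20.7 and 8.89 CPM at R8 and a mean of 13.6 ± 1.47 CPM at R7 (SD, n = 3). Its level was thus similar at R7 and R8 and lower in each R9 library. In the fit this was a log2 fold change of -4.02 ± 0.67 (SE, edgeR adjusted p = 0.000132), beside -3.72 in SXB405 and -5.48 in MIDAS. In G12873 the gene measured 2.99 ± 1.47 CPM at R9 and 2.18 ± 0.895 CPM at R8 (SD, n = 3 each). The difference of its step from that of G12873 was -4.47 ± 0.85 (SE, edgeR adjusted p = 0.00579), and that of Phvul.011G209600 was -5.78 ± 1.38 (adjusted p = 0.0209). The second lost its call under limma-voom (adjusted p = 0.0626). With R8 replicate 2 left out it was -4.66 and not called (adjusted p = 0.0829), nor was it with R9 replicate 3 left out (adjusted p = 0.0568). With R9 replicate 2 alone, neither difference was called by edgeR (adjusted p = 0.0749 for Phvul.011G185500 and 0.275 for Phvul.011G209600).

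Other genes were named because their ICA Bunsi step was called different from that of G12873. Within G12873 itself, neither gene given here was called between the stages. The log2 fold changes there were -1.46 for Phvul.008G005500 and -1.58 for Phvul.008G254400 (edgeR adjusted p = 0.835 and 0.765). Phvul.008G005500 measured 17.0, 25.4 and 29.0 CPM at R9 and 1.41, 1.79 and 1.09 CPM at R8, after 22.3 to 36.1 CPM at R7. The R8 libraries were low as a group, so the R9 level was close to that of the first pods. From R8 to R9 the log2 fold change was 4.03 ± 0.83 (SE, edgeR adjusted p = 0.00137). In G12873 it measured 28.0, 18.1 and 31.4 CPM at R9, against 20.3, 183 and 7.88 CPM at R8, where replicate 2 stood far above the others. The remaining R8 libraries of G12873 lay within or below its R9 range. The difference was 5.49 ± 1.07 (SE, edgeR adjusted p = 0.00598), and it missed the threshold under limma-voom (4.41, adjusted p = 0.0502), with the replicate block (4.70, adjusted p = 0.0509) and with R9 replicate 2 alone (adjusted p = 0.102). Phvul.008G254400 measured 16.1, 6.61 and 29.9 CPM at R9 in ICA Bunsi and 1.32, 1.06 and 1.43 CPM at R8, with 9.59 to 10.6 CPM at R7. It too was lowest at R8. In G12873 it measured 3.22, 2.38 and 0.892 CPM at R9, against 1.85, 10.4 and 7.05 CPM at R8, and these ranges overlapped. The ICA Bunsi log2 fold change was 3.65 ± 0.73 (SE, edgeR adjusted p = 0.000921), and the step differed from that of G12873 by 5.23 ± 0.99 (SE, edgeR adjusted p = 0.00579). With R9 replicate 2 alone neither was called, at 2.35 for the step (adjusted p = 0.139) and 3.96 for the difference (adjusted p = 0.204).

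Against SXB405, which has the same dehiscence label, the 2 rising genes named for their difference were not called between the stages in SXB405 itself. Phvul.010G163600 measured 20.8, 14.8 and 19.6 CPM at R9 in ICA Bunsi and 1.79, 0.245 and 1.93 CPM at R8. In SXB405 it measured 6.25, 20.2 and 14.5 CPM at R9, against 5.997, 16.8 and 21.3 CPM at R8. The R9 ranges of the accessions overlapped, and the R8 ranges did not. The ICA Bunsi log2 fold change was 3.78 ± 0.58 (SE, edgeR adjusted p = 7.45e-05), and the difference of the steps was 3.88 ± 0.75 (adjusted p = 0.0272). Phvul.004G040200 measured 11.8, 7.48 and 15.9 CPM at R9 in ICA Bunsi, against 1.04, 1.71 and 2.10 CPM at R8. In SXB405 its values were 8.87, 10.5 and 16.8 CPM at R9 and 9.52, 38.4 and 20.7 CPM at R8. Again the accessions overlapped at R9 and not at R8. The ICA Bunsi log2 fold change was 2.72 ± 0.48 (SE, edgeR adjusted p = 0.000264), and the difference was 3.64 ± 0.62 (adjusted p = 0.0135). Phvul.004G040200 averaged 222 CPM at R9 and 7.31 CPM at R8 in MIDAS, and 232 and 162 CPM in G12873. Its ICA Bunsi step was called below that of MIDAS and above that of G12873.

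The falling genes named there were low in SXB405 at both stages or had a higher mean at R9 than at R8. Phvul.002G093500 measured 0.472, 1.83 and 0.936 CPM at R9 in ICA Bunsi and 11.4, 16.1 and 8.39 CPM at R8. In SXB405 it averaged 3.17 ± 2.29 CPM at R9 and 3.11 ± 1.26 CPM at R8 (SD, n = 3 each), below every R8 library of ICA Bunsi. Its ICA Bunsi log2 fold change was -3.07 ± 0.51 (SE, edgeR adjusted p = 0.000125), and the difference was -3.05 ± 0.66 (adjusted p = 0.0337). Phvul.010G120700 measured 3.78, 5.81 and 2.81 CPM at R9 in ICA Bunsi, against 9.61, 10.1 and 16.5 CPM at R8, and averaged 19.7 ± 9.75 CPM at R9 and 7.49 ± 2.61 CPM at R8 in SXB405 (SD, n = 3 each). Its ICA Bunsi log2 fold change of -1.36 ± 0.50 (SE, edgeR adjusted p = 0.0483) and the difference of -2.74 ± 0.66 (adjusted p = 0.0450) were both close to the threshold. Each of these 4 differences lost its call without R9 replicate 1, without R8 replicate 1 and with R9 replicate 2 alone, at sizes near those with all libraries. That of Phvul.010G163600 was then 3.74, 4.12 and 3.60, and that of Phvul.002G093500 was -2.80, -3.13 and -2.65. Under limma-voom the differences of Phvul.004G040200, Phvul.002G093500 and Phvul.010G120700 missed the threshold (adjusted p = 0.0508, 0.0590 and 0.0738).

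Against MIDAS, the named genes had fold changes of opposite sign in the accessions. Phvul.003G234000 measured 10.9, 10.4 and 18.7 CPM at R9 in ICA Bunsi and 7.82, 3.26 and 5.20 CPM at R8. All R9 libraries were higher, though by a small margin. In MIDAS it measured 0.502, 0.115 and 0.139 CPM at R9, against 2.76, 5.25 and 5.51 CPM at R8. The log2 fold change was 1.23 ± 0.40 in ICA Bunsi (SE, edgeR adjusted p = 0.0292) and -4.60 in MIDAS (adjusted p = 2.72e-06), a difference of 5.82 ± 0.79 (adjusted p = 4.32e-05). Phvul.002G146000 measured 28.8, 21.3 and 31.8 CPM at R9 in ICA Bunsi and 7.44, 5.71 and 10.6 CPM at R8, with a log2 fold change of 1.76 ± 0.56 (SE, edgeR adjusted p = 0.0252). In MIDAS it had 0 counts in all R9 libraries and 0.491, 1.91 and 2.22 CPM at R8. The difference was called (edgeR adjusted p = 0.00237), but its fitted size is not given here because of the 0 counts. The step of Phvul.003G234000 in ICA Bunsi lost its call without R8 replicate 2, R8 replicate 3, R9 replicate 1 or R9 replicate 3, at 0.93 to 1.26. That of Phvul.002G146000 lost it without R8 replicate 1, R8 replicate 2, R9 replicate 1 or R9 replicate 3, at 1.57 to 1.69. Both differences from MIDAS kept their calls in these fits. In the fit on the 6 samples compared, the ICA Bunsi step of Phvul.003G234000 was not called either (edgeR adjusted p = 0.0628).

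Phvul.006G177100 measured 15.1, 15.8 and 14.03 CPM at R9 in ICA Bunsi and 39.3, 17.9 and 38.2 CPM at R8. R8 replicate 2 was close to the R9 libraries. In MIDAS it measured 101, 77.0 and 115 CPM at R9, against 19.8, 29.4 and 21.9 CPM at R8. In log2 fold change the step was -1.07 ± 0.28 in ICA Bunsi (SE, edgeR adjusted p = 0.00751) and 2.05 in MIDAS (adjusted p = 5.51e-07), a difference of -3.12 ± 0.39 (adjusted p = 1.15e-05). The ICA Bunsi step fell short of 2-fold under limma-voom (-0.94) and with R8 replicate 1 or 3 left out (-0.92 and -0.91), where the difference kept its call. In the fit on the 6 samples compared, the step was -1.06 and not called (edgeR adjusted p = 0.0509). Phvul.003G056700 measured 1.42, 2.39 and 0 CPM at R9 in ICA Bunsi, against 7.07, 12.2 and 8.47 CPM at R8 and 0.0844 to 0.319 CPM at R7. It peaked at R8, with every R8 library above those of the other stages. From R8 to R9 the fall was a log2 fold change of -2.41 ± 0.56 (SE, edgeR adjusted p = 0.00309). In MIDAS it averaged 3.32 ± 1.48 CPM at R9 and 1.37 ± 0.526 CPM at R8 (SD, n = 3 each), with a log2 fold change of 1.13 that was not called (adjusted p = 0.105), and the difference of the steps was -3.54 ± 0.79 (adjusted p = 0.00487).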

How the data were processed

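Estimated counts and TPM per transcript were deposited by the authors for each sample, 36995 transcripts each. The estimated counts were deposited without normalization, and the deposited TPM values are scaled for length and to one total per sample. Transcript length and effective length, other columns deposited by the authors, entered no test. The submitters' processing notes name kallisto, limma and edgeR without versions. Not given in the sources used here are the genome build, annotation, trimming and use of strand, so antisense partners and near-identical genes cannot be separated. Libraries were TruSeq preparations of total RNA, per the labels' protocols.

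Estimated counts were summed per gene (identifier without its last number) and rounded. Tables were read in Python 3.11.15 (pandas 2.3.3) and plots made with matplotlib 3.10.9. In R 4.3.3, edgeR 4.0.16 filtered genes with filterByExpr (at least 10 counts, total of at least 15), which kept 20966 and removed 6467. Libraries were TMM-scaled, and a robust quasi-likelihood model was fitted to the 36 samples in 12 groups. Calls needed a change of 2-fold or more and a p under 0.05 after Benjamini-Hochberg adjustment across every tested gene. Log2 CPM used a prior count of 2, and standard errors came from the F statistic. Of the 50 most abundant genes, those whose share had a Spearman correlation over 0.9 with that of the first form the co-varying set. The fit was tested on simulated data.

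Alternatives were limma-voom with limma 3.58.1, DESeq2 1.42.0, scaling by RLE, removal of the co-varying or of the 50 most abundant genes, no filter, no minimum fold, transcripts, fits on 6 or 9 samples, a replicate block, and libraries left out. Lists by gene description could not be built without names. The genes, lists and tests were chosen with earlier results of these data known. Named genes have no overlap between the R9 and R8 libraries. They were the 2 that rose and 2 that fell furthest, and the 2 and 2 most abundant, among genes called in every fit without 1 library. Further picks of 2 and 2 were the genes called in all 3 domesticated accessions and those whose step differed from each accession. Added without regard to overlap were the most abundant genes at 0 in one stage, the first 3 of the co-varying set and 3 fixed identifiers. Runs of neighbouring genes are named by their length.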

Additional observations from a re-analysis of the deposited data

Results flagged for a closer look

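For 12 results, the step from R8 to R9 differed between ICA Bunsi and another accession in the test of the difference itself, adjusted over all genes tested. Only genes picked for the difference in question are listed. Differences were also called for other named genes, such as Phvul.008G101800 (2.87 against SXB405 and 2.03 against G12873). Values are the log2 fold change of R9 over R8 in ICA Bunsi minus that in the other accession. Against G12873 they were -5.78 for Phvul.011G209600, -4.47 for Phvul.011G185500, 5.49 for Phvul.008G005500 and 5.23 for Phvul.008G254400. In G12873 the R8 libraries stood nearer to R9 on the scale of stage-dependent genes than those of ICA Bunsi, and the part of this in the 4 differences was not tested.

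Against SXB405 the values were 3.88 for Phvul.010G163600, 3.64 for Phvul.004G040200, -3.05 for Phvul.002G093500 and -2.74 for Phvul.010G120700. For the 2 rising genes, SXB405 had R9 levels that overlapped those of ICA Bunsi and higher R8 levels.

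Against MIDAS they were 8.66 for Phvul.002G146000, 5.82 for Phvul.003G234000, -3.54 for Phvul.003G056700 and -3.12 for Phvul.006G177100. The value of Phvul.002G146000 is a fitted number with no measured size, since all 3 MIDAS R9 libraries were at 0. The genes were named for these differences, so their values describe the top of each list.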

How the results depend on the processing

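The number of genes called between R9 and R8 (3232) stayed within 1.5 times under DESeq2 (3381), limma-voom (2761), RLE size factors, the 50 most abundant genes or the co-varying genes left out, no filter, fits on 6 (2360) or 9 samples, and no minimum fold. It moved to 2137 with transcripts, to 426 with R9 replicates 1 and 3 left out, and between 1916 (without R8 replicate 2) and 3943 (without R9 replicate 2) with single libraries left out. Of the 3943, 2528 were among the 3232. More genes were higher than lower, against the main split of 1534 and 1698, with DESeq2 (1797 and 1584), RLE size factors (1746 and 1582), the 6-sample fit (1293 and 1067), without R8 replicate 2 (1005 and 911) and with R9 replicate 2 alone (225 and 201). The difference from SXB405 (136 genes) moved to 702 with DESeq2, 78 with limma-voom, 250 with RLE size factors, 89 without the co-varying genes, 71 without a filter, 0 with R9 replicates 1 and 3 left out, and between 0 and 1275 with single libraries left out. The difference from MIDAS (1771) moved to 351 with R9 replicates 1 and 3 left out, and between 969 (without R8 replicate 3) and 2385 (without R9 replicate 2) with single libraries left out. It was also 1016 without R9 replicate 1 and 1162 without R8 replicate 1. The difference from G12873 (892) moved to 1582 with DESeq2, to 1 with R9 replicates 1 and 3 left out, and between 178 (without R8 replicate 2) and 2136 (without R9 replicate 2). It was also 223 without R9 replicate 1, 223 without R9 replicate 3 and 437 without R8 replicate 1. The causes were not tested. Deviations from the group mean correlated across genes with Pearson's r of -0.014, -0.088 and -0.033 between same-numbered R9 and R8 libraries. Differently numbered pairs gave -0.068 to 0.114. With 3 libraries per stage, these values cannot tell whether same-numbered libraries were paired. With the replicate block the step had 3126 calls and the differences from SXB405, MIDAS and G12873 had 74, 1351 and 715. The median log2 fold change of all genes, -0.08, was -0.13 without the co-varying genes, -0.22 with transcripts and -0.19 without R9 replicate 2. Single named genes gave 648 alternative values, of which 557 kept their direction and side of the threshold, 77 lost the call, 11 gained it and 3 turned. The 3 were Phvul.L001990 (-1.34), Phvul.003G000408 (-1.50) and Phvul.003G090100 (-1.31), with R9 replicates 1 and 3 left out. Of 23 called step results, 11 kept the call in every alternative. Depth outside the abundant genes was lowest in R9 replicate 3, at 908225 counts.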
